A study of Mus musculus with 10 samples.

Results

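The genes examined here encode the machinery that copies and transcribes mitochondrial DNA. They were chosen by name, as every probe set that the platform annotation gives to Polg, Polg2, Twnk, Tfam, Ssbp1, Top1mt, Polrmt, Tfb1m, Tfb2m or Rrm2b, and all 10 genes were found, with 22 probe sets, among 18193 named genes. RNA from the cochlea, the hearing organ of the inner ear, had been taken from male mice aged 9 months and hybridised to 1 array per sample, 5 from PolgD257A/D257A mice and 5 from wild-type Polg+/+ mice. The D257A change inactivates the proofreading exonuclease of the mitochondrial DNA polymerase, so that errors build up in mitochondrial DNA as the mice age, and the study set mutant against wild-type cochleae to look for transcripts that respond to those errors. The labels do not say whether a sample came from 1 animal or from several, and the design text states that no replicates were made, so p-values measure the spread between these samples, which may be technical. They name no cell type to which the change is limited.

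Mitochondrial DNA is a small circle that cells keep in many copies. It is copied by a polymerase, a helicase that opens the strands and a protein that coats single strands, and it is transcribed by a separate single-subunit RNA polymerase that also lays down primers for replication. All of these proteins are encoded in the nucleus and imported. The deoxynucleotides they use come, in cells that do not divide, in part from a ribonucleotide reductase that contains Rrm2b. The nuclear factor GABP, an ETS family protein also called NRF-2, is known to act on promoters of several of these genes.

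Promoter sequences of these genes were examined for the letters that GABP recognises. RefSeq promoter windows on the GRCm38.p6 build, from 250 bases before to 50 bases after a gene's start, were on hand for 8 of the 10 genes. The letters CCGGAAG, the core that GABP recognises, were searched on both strands, and 6 of the 8 genes held them in a window, against 8.86% of all 32851 windows and 19.1% of the 10841 windows with at least 16 CpG, the fewest in a window of the 6 genes. The core of a different factor, NRF1, searched as GCGC, any 2 bases and GCGC again, reads the same on both strands and was found in 1 of the 8 genes, Polrmt, against 6.23% of all windows and 17.0% of those with at least 16 CpG; the 2 motifs share no letters that force an overlap. The motifs were chosen with the gene list in view, and a match describes letters only. The stretches around each match are shown because they are what 6 of the genes have in common; capitals mark the match, which reads CTTCCGG where it lies on the opposite strand. Twnk has 2 matches in 1 window, and the one nearer to the start is given.
Polg, chr7:79466275-79466341, minus strand: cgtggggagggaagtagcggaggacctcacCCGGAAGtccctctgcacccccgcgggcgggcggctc
Polg2, chr11:106779538-106779596, minus strand: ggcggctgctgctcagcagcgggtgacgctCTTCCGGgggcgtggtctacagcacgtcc
Twnk, chr19:45006462-45006528, plus strand: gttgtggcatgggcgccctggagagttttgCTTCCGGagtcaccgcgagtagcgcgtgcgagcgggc
Ssbp1, chr6:40471391-40471457, plus strand: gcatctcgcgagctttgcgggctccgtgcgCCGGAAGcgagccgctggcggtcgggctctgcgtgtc
Tfam, chr10:71238055-71238121, minus strand: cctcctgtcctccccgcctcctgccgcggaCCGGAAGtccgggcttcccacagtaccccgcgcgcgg
Polrmt, chr10:79746588-79746654, minus strand: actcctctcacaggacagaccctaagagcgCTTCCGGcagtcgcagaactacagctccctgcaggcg
The matches in Ssbp1 and Tfam begin at the same place, 47 bases before the start, and those of Polrmt and Polg begin 43 and 38 bases before it. The match in Polg2 begins 29 bases before the start, and the 2 in Twnk begin 110 and 66 bases before it. The windows of Tfb1m and Tfb2m hold neither motif.

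Signals are the authors' linear array intensities. They were compared as log2(signal + 16) with limma, adjusted by the Benjamini-Hochberg method over the 22518 brighter probe sets of the array, and a call is an adjusted p under 0.05. The trimmed mean signal was 1494.4 to 1496.2 on all 10 arrays. D257A replicate 2 and wild-type replicate 3 were least like the other arrays of their groups, with a mean correlation of 0.839 and 0.876 to them, against 0.878 to 0.939 for the other 8 arrays. Of 15 cochlear markers, 13 had a probe set, 10 were bright enough to test and none was called (2 had an unadjusted p under 0.05 in limma), with a summed signal of 150546 to 218841 on D257A arrays and 165526 to 232023 on wild-type arrays. Sums add linear signals, so bright markers decide them: Coch averaged 68700 and Myo7a 1094 on D257A arrays. Skeletal muscle markers did differ: 6 of 13 were called lower, and their summed signal was 10356 to 290429 on D257A arrays and 187556 to 560919 on wild-type arrays. All 13 had a negative log2 fold change of D257A minus wild type. An unadjusted p under 0.05 in limma was seen for 12 of them, against 16.7% of all genes tested. All 8 markers of secretory and squamous epithelium were called lower, with 11532 to 21973 on D257A arrays and 88410 to 397277 on wild-type arrays. Of 8 neutrophil markers 2 were called higher, with 98965 to 297779 on D257A arrays and 70275 to 118740 on wild-type arrays. All 8 had a positive log2 fold change and an unadjusted p under 0.05 in limma. Of 6 tested cerebellar markers 1 was called lower, with 17724 to 24375 on D257A arrays and 5740 to 84052 on wild-type arrays. All 6 had a negative log2 fold change, and 3 had an unadjusted p under 0.05 in limma. None of 6 tested markers of cycling cells was called (0 had an unadjusted p under 0.05 in limma), with 12727 to 22794 on D257A arrays and 14248 to 23224 on wild-type arrays. No marker of these 6 lists was at 0 on any array. The lowest mean signal of any tested probe set was 577.4. Among the called markers, Muc5b, Krt14, Tff2, Myh2 and Pcp2 had D257A means below it, at 230.8, 348.2, 278.3, 143.4 and 389.1. They passed the filter on signal only through their wild-type arrays, so they could have only a negative sign. Their calls, among them the only cerebellar one (Pcp2), are descriptions. The cerebellar sum was 5740 on wild-type replicate 1 and 38007 to 84052 on wild-type replicates 2 to 5. The muscle and cerebellar lists name tissues other than the cochlea, and how much of them each sample held was not tested. In whole tissue, fewer cells of a type, less RNA per cell and a different share of neighbouring tissue cannot be told apart.

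No gene of the machinery passed the test. Each of the 10 genes, represented by its brightest probe set, was bright enough to be tested, and 0 of 10 were called by limma, where 2.32% of 11871 genes tested were called. At an unadjusted p under 0.05 the count was 1 of 10, Twnk, against 16.7% of all genes tested. Of all 22 probe sets, 17 passed the filter on signal and 0 of these were called, against 2.28% of all tested probe sets. With no filter, 0 of the 22 were called, against 1.31% of 45037 probe sets. Of the 17, 2 had an unadjusted p under 0.05, against 16.9% of all tested probe sets. These were that of Twnk and the dimmest of Polg, and the latter passed the filter on signal only through its D257A arrays. The log2 fold changes of D257A minus wild type were positive for 7 genes and negative for 3, with a median of 0.13 beside -0.022 for all genes tested. The 7 include Top1mt, which passed the filter on signal only through its D257A arrays, so the counts and the median are descriptions. Their median size without sign was 0.14, beside 0.21 for all genes tested, and the median standard error was 0.19, beside 0.21.

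**Figure D1:**
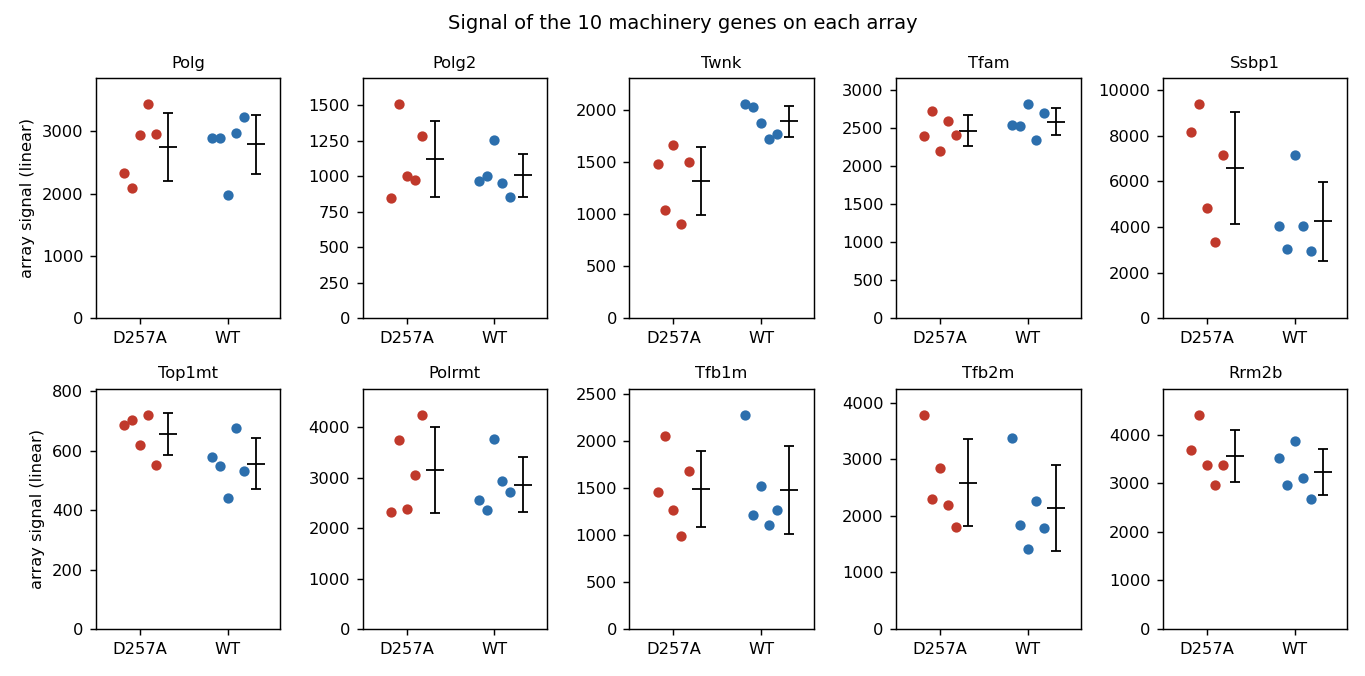
Linear array signal of the brightest probe set of each of the 10 genes, with 1 point per array (replicates 1 to 5 from left to right), D257A in red on the left and wild type in blue on the right; the dash and bar give the mean and SD of 5 arrays. The D257A points of Twnk all lie below the wild-type points, and the groups overlap in the other 9 panels.

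Twnk, the helicase that unwinds mitochondrial DNA ahead of the polymerase, had the lowest p of the 10 genes as read by their brightest probe sets; among the tested probe sets, the dimmest of Polg had a lower one, given with that gene. Its signal in D257A replicates 1 to 5 was 1478.4, 1035, 1663.5, 901.2 and 1500.1, and in wild-type replicates 1 to 5 it was 2056.3, 2028.9, 1873.5, 1721.1 and 1768.6. Every D257A array lay below every wild-type array, so the D257A value was the lower one in all 25 pairs of a D257A and a wild-type array, the form of comparison that the study's design describes. The gap between the groups was small, with 1663.5 the highest D257A and 1721.1 the lowest wild-type value, and D257A replicates 2 and 4 lay apart from the other D257A arrays, at 1035 and 901.2. The means were 1316 ± 328.6 in D257A and 1890 ± 150.4 in wild-type cochleae (SD, n = 5 each). The log2 fold change was -0.55 (SE 0.19, 95% interval -0.97 to -0.14), with a limma unadjusted p of 0.0132 and an adjusted p of 0.16. Groups that do not overlap were seen for 5.29% of all genes tested, and for 1 of the 10 machinery genes. The adjusted p lay between 0.0981 and 0.329 in the alternative fits, and it was 0.248 with a log2 fold change of -0.48 when the arrays that stood apart, D257A replicate 2 and wild-type replicate 3, were left out. On the 5 D257A arrays in the order of replicates, the summed signal of muscle markers was 28096, 123596, 36121, 10356 and 290429, so that replicate 4 was lowest for the muscle list and for Twnk, while replicate 2, the next lowest for Twnk, was the second highest for the muscle list; the part of muscle RNA in the Twnk difference was not tested.

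Polg itself, the catalytic subunit of the polymerase and the gene that carries the mutation, was read by 3 probe sets that did not give the same answer. The brightest, 1423272_at, measured 2327.9, 2083.7, 2942.8, 3437.6 and 2961.8 in D257A replicates 1 to 5, and 2887.2, 2894.8, 1972.8, 2980.4 and 3223.6 in wild-type replicates 1 to 5. The groups overlapped almost wholly, with the D257A value higher in 13 of 25 pairs and a log2 fold change of -0.025 (95% interval -0.43 to 0.39, limma adjusted p = 0.966). The sign of this value turned to 0.022 under quantile normalization and to 0.10 with the mean over all Polg probe sets. The dimmest, 1423273_at, measured 860.9, 956.4, 791.8, 684.6 and 723.2 in D257A, and 551.7, 566.3, 625.1, 496.5 and 507 in wild-type replicates 1 to 5. Here every D257A array lay above every wild-type array, in all 25 pairs. Its log2 fold change was 0.53 (SE 0.18, 95% interval 0.15 to 0.91), with a limma unadjusted p of 0.0101 and an adjusted p of 0.144, which lay between 0.0787 and 0.271 in the alternative fits. It was 1 of the 2 tested probe sets of the machinery whose groups do not overlap, Twnk's being the other, and 5.16% of all tested probe sets were of that kind. Its wild-type mean of 549.3 ± 51.52 (SD, n = 5) lay below 577.4, the lowest mean signal of any tested probe set. The D257A mean of 803.4 lay above that, so the probe set passed the filter only through its D257A arrays. It could therefore have only a positive sign, and its separation and p are descriptions. Whether the wild-type signal exceeded background was not tested. The third, 1437564_at, averaged 867.9 ± 168.4 in D257A and 1008 ± 243.3 in wild type (SD, n = 5 each; log2 fold change -0.20, limma adjusted p = 0.697). The platform annotation lists the first and the dimmest of these under the same source sequence. A single amino acid change is not read by any of them, so these levels do not check the genotype labels.

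**Figure D2:**
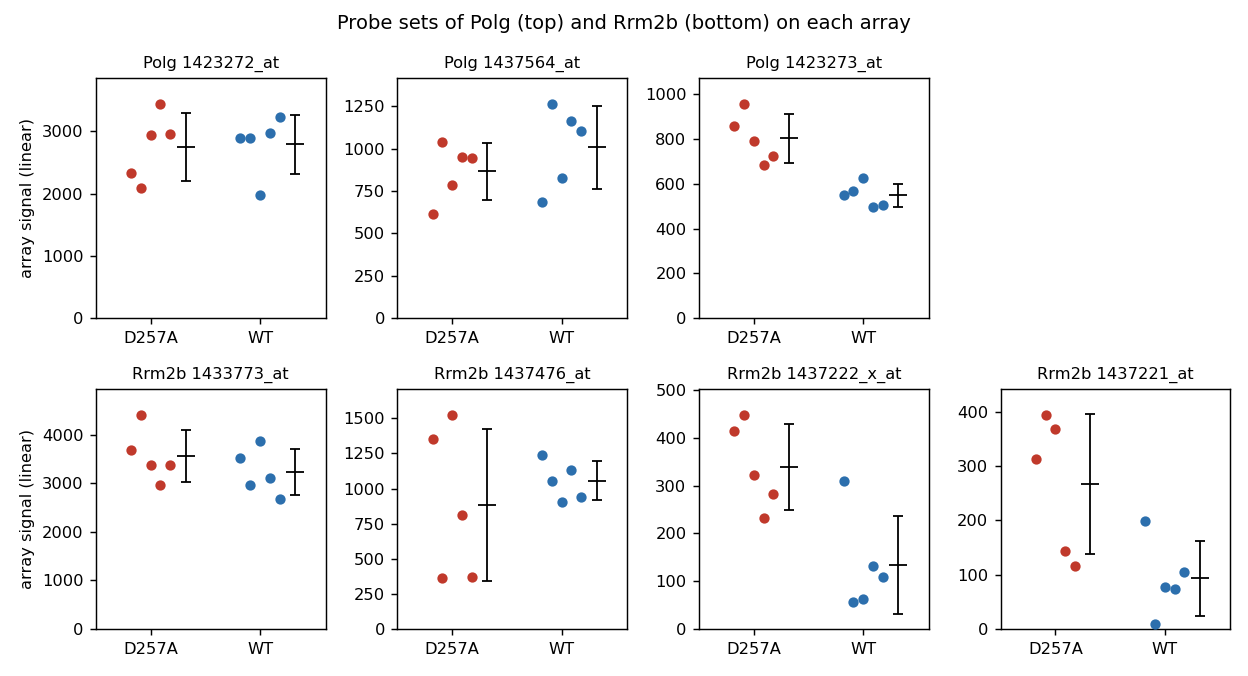
Linear array signal of the 3 probe sets of Polg (top row) and the 4 of Rrm2b (bottom row), from bright to dim, with 1 point per array, D257A in red on the left and wild type in blue on the right; the dash and bar give the mean and SD of 5 arrays. The groups separate for Polg 1423273_at and overlap for the brightest probe set of either gene.

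The partners of Polg and Twnk at the replication fork showed no call. Polg2, the accessory subunit that keeps the polymerase on its template, measured 847.4, 1506, 998, 975.7 and 1279.3 in D257A replicates 1 to 5, and 962.3, 1001.1, 1255.7, 952.9 and 855.7 in wild-type replicates 1 to 5. Its groups overlapped (log2 fold change 0.14, 95% interval -0.29 to 0.56, limma adjusted p = 0.777). Top1mt, the topoisomerase that relieves twist in mitochondrial DNA, measured 687.2, 702.4, 619.1, 721.3 and 552.2 in D257A, and 580.3, 550.3, 441.4, 678 and 531.9 in wild-type replicates 1 to 5. The D257A value was higher in 22 of 25 pairs, yet the groups overlapped, since D257A replicate 5 at 552.2 lay below wild-type replicates 1 and 4. Its log2 fold change was 0.24 (95% interval -0.16 to 0.64, limma adjusted p = 0.554). The wild-type mean of 556.4 lay below 577.4, the lowest mean signal of any tested probe set, and the D257A mean of 656.4 above it, so a gene that passed in this way could have only a positive sign.

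Ssbp1, the protein that coats single-stranded mitochondrial DNA, had the largest positive fold change among the 10 genes and also the largest error. Its brightest probe set, 1427965_at, measured 8178.5, 9387.8, 4854, 3327.2 and 7173 in D257A, and 4056.7, 3026.3, 7173.5, 4025.4 and 2927.5 in wild-type replicates 1 to 5. D257A replicates 1, 2 and 5 and wild-type replicate 3 were high and the remaining arrays lower, so the groups overlapped across most of their range. The log2 fold change was 0.62 (SE 0.31, 95% interval -0.05 to 1.28, limma adjusted p = 0.334). Another probe set listed under the same source sequence, 1452616_s_at, averaged 3328 ± 696.4 in D257A and 3163 ± 434.8 in wild type (SD, n = 5 each), with a log2 fold change of 0.060 that turned to -0.041 when arrays were centred on their medians. The other 3 probe sets of Ssbp1 had log2 fold changes of 0.33 (1430294_at, limma adjusted p = 0.391), 0.43 and 0.78, and the last 2 (1452617_at and 1444053_at) were below the filter on signal, with adjusted p of 0.585 and 0.503 in the limma fit with no filter. All 5 were positive as fitted, and they share 1 gene and in part 1 source sequence, so they are not independent readings.

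**Figure D3:**
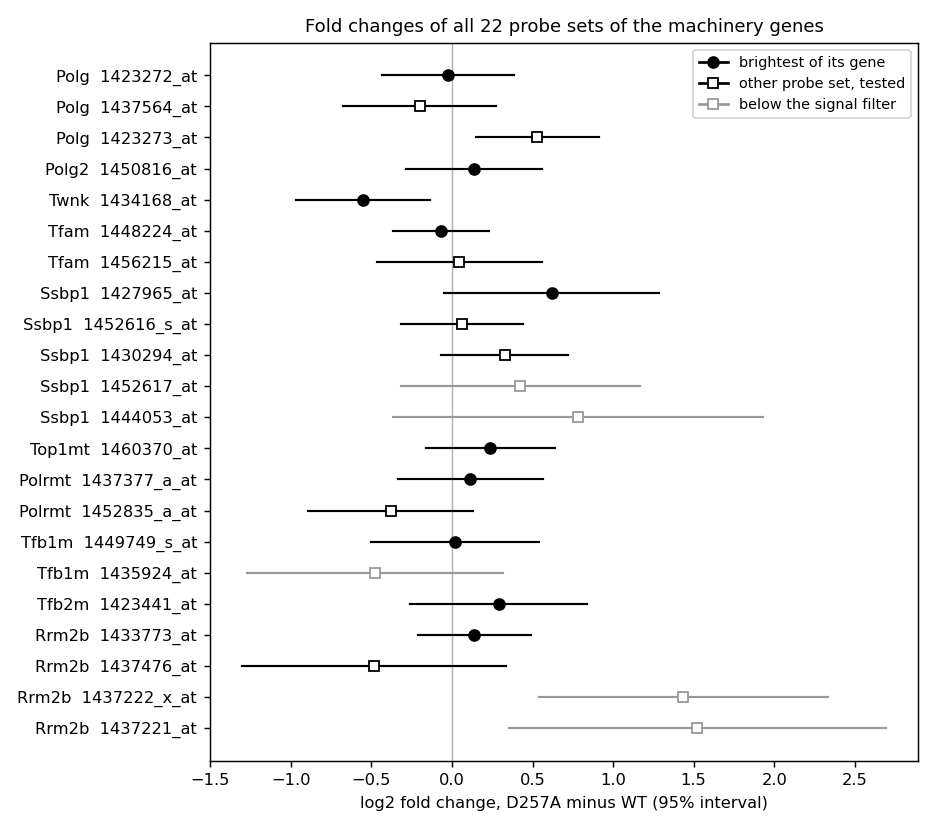
Fitted log2 fold change of D257A minus wild type with its 95% interval for all 22 probe sets; filled circles are the brightest probe set of each gene, open squares the others, and grey marks the 5 probe sets below the filter on signal, taken from the fit with no filter. The intervals of 18 probe sets include 0; those of Twnk, Polg 1423273_at, Rrm2b 1437222_x_at and Rrm2b 1437221_at do not, and none of the 22 passed the adjusted test.

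None of the genes for transcription was called either. Tfam, which packages mitochondrial DNA and bends its promoters so that transcription can start, measured 2400.6, 2721.6, 2192.1, 2593.6 and 2405.7 in D257A, and 2532.4, 2528.3, 2812.9, 2344.9 and 2702.5 in wild-type replicates 1 to 5. It had the tightest interval of the 10 genes, from -0.37 to 0.23 around a log2 fold change of -0.070 (limma adjusted p = 0.845), so its fold of D257A over wild type lay between 0.775 and 1.17. Its dimmer probe set, 1456215_at, gave a log2 fold change of 0.046, and of -0.054 with arrays centred on their medians.

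Polrmt, the RNA polymerase of mitochondria, measured 2311.5, 3756.6, 2384.1, 3058 and 4248.8 in D257A, and 2552.4, 2364.7, 3762.6, 2927.4 and 2712.4 in wild-type replicates 1 to 5 with probe set 1437377_a_at. The groups overlapped (log2 fold change 0.11, 95% interval -0.33 to 0.56, limma adjusted p = 0.83). Its other probe set, 1452835_a_at, had the opposite sign, with 1476.1, 1997.3, 1786.4, 3440.1 and 3322 in D257A, and 2722.2, 3195.6, 3429.3, 2756.6 and 2753.8 in wild-type replicates 1 to 5. On it D257A replicates 1, 2 and 3 lay below all wild-type arrays and replicates 4 and 5 within or just above their range (log2 fold change -0.38, limma adjusted p = 0.447). D257A replicate 2 was high on the first probe set and low on the second. The mean over both probe sets gave a log2 fold change of -0.13.

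The transcription factor Tfb2m, which melts the promoter together with Polrmt, averaged 2583 ± 769.4 in D257A and 2134 ± 756.4 in wild type (SD, n = 5 each; log2 fold change 0.29, limma adjusted p = 0.606). Replicate 1 was the highest array of each group, at 3783.1 in D257A and 3371.1 in wild type. Tfb1m, a related protein that methylates the small ribosomal RNA of mitochondria, averaged 1488 ± 405.2 in D257A and 1476 ± 471.9 in wild type with 1449749_s_at (SD, n = 5 each; log2 fold change 0.018, limma adjusted p = 0.982), a sign that turned when arrays were centred on their medians (-0.082). Its probe set below the filter, 1435924_at, had a log2 fold change of -0.48 and an adjusted p of 0.562 in the limma fit with no filter. Across the 5 genes with more than 1 tested probe set, 4 had tested probe sets of opposite sign: Polg, Tfam, Polrmt and Rrm2b.

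Rrm2b, a p53-inducible subunit of ribonucleotide reductase that supplies deoxynucleotides outside the S phase, was read by 4 probe sets. The brightest, 1433773_at, measured 3694.1, 4413.6, 3373.3, 2966 and 3371.6 in D257A, and 3533.1, 2967.5, 3876.1, 3112.7 and 2684.1 in wild-type replicates 1 to 5. The groups overlapped, with a log2 fold change of 0.14 (95% interval -0.21 to 0.49, limma adjusted p = 0.718). The dim probe set 1437222_x_at measured 414.7, 448.4, 321.9, 232.1 and 282.9 in D257A, and 309.1, 56.3, 63.5, 131.2 and 109.6 in wild-type replicates 1 to 5. Wild-type replicate 1 lay within the D257A range and the other 4 wild-type arrays below it. Its log2 fold change of 1.44 (95% interval 0.54 to 2.33) and that of its neighbour 1437221_at, 1.52 (0.35 to 2.70), had unadjusted p of 0.00424 and 0.0147 and adjusted p of 0.112 and 0.192 in the limma fit with no filter. Of all 45037 probe sets, 9.96% had an unadjusted p under 0.05 and a positive sign in that fit. The median log2 fold change of all probe sets in it was 0.092, beside -0.001 for the 22518 brighter ones in the main fit. The annotation lists both probe sets under the same source sequence, and whether signals this dim exceed background was not tested. The fourth, 1437476_at, was split within D257A: replicates 1 and 3 measured 1355.9 and 1525.5, replicate 4 measured 811.6, and replicates 2 and 5 measured 362.3 and 368.6, against 903 to 1242.5 in wild type. Its SD on the log2 scale was 0.97 in D257A and 0.19 in wild type, and its log2 fold change was -0.48 (limma adjusted p = 0.556).

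Arrays of the D257A group varied more than wild-type arrays for 7 of the 10 genes (SD of log2 signal of the brightest probe set), and so they did for 67.1% of all genes tested. Twnk had the widest gap of these, with an SD of 0.38 in D257A and 0.11 in wild type. Tfam was the least variable gene in both groups, with 0.12 in D257A and 0.10 in wild type, and Ssbp1 the most variable in both, with 0.61 and 0.52.

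The patterns of the genes over the 10 arrays were set against those of all other tested genes, as the mean absolute difference between log2 signals centred on each gene's own mean. For Polg (1423272_at) the closest 5 genes were Larp1, Nfe2l1, Capns1, Slc6a17 and Pnpla6, with differences of 0.07 to 0.09 over 10 arrays. No member was near it: Top1mt stood at rank 1457 of 11870, Tfam at rank 2563 and Twnk at rank 4272. The smallest difference of a member from Polg, 0.222 for Top1mt, exceeded 0.216, the value for a gene with no variation. For Twnk the closest were Slc44a3, Tcaim, Efcab1, Nif3l1 and Ston2, with differences of 0.10 to 0.12. Their log2 fold changes, from -0.37 to -0.55 with none called, follow from the choice, since the pattern over 10 arrays includes the difference between the groups. No member was near Twnk either: the smallest difference, 0.303 for Tfam, exceeded 0.295, the value that a gene with no variation would have.

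Of 108 entries in 7 related lists, 89 had a probe set of 1 gene and 79 genes were bright enough to test. Limma called 0 of 79, and 8 of 79 (10.1%) had an unadjusted p under 0.05, against 16.7% of all genes tested. The 8 include Myc and Sesn2, which passed the filter on signal only through their D257A arrays. Among the 15 tested genes of deoxynucleotide supply, 7 were positive and 8 negative (median log2 fold change -0.001), and this list held the lowest adjusted p of the 7. Slc25a33, a mitochondrial carrier of pyrimidine nucleotides, measured 4567.7 to 6468.8 in D257A (median 5044.6) and 3239.4 to 3768.8 in wild type (median 3525.9). All D257A arrays lay above all wild-type arrays (log2 fold change 0.61, SE 0.15, limma adjusted p = 0.0572), and the gene was called in 3 of 21 alternative fits: 0.0437 with quantile normalization, 0.0372 with array weights and 0.0467 with the mean over its probe sets. Separation of the groups in either direction was seen for 5.29% of all genes tested. Rrm2, the S-phase counterpart of Rrm2b, measured 2397.7 to 5857.5 in D257A (median 3741.4) and 5400.2 to 8153.6 in wild type (median 6507.7). Its groups overlapped (log2 fold change -0.87, SE 0.24, limma adjusted p = 0.0869), and it was called with array weights (0.0386) and without D257A replicate 1 (0.0467). Of the 6 tested markers of cycling cells, 2 were positive and 4 negative, with a median log2 fold change of -0.081, and the part of cycling cells in the Rrm2 values was not tested.

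Among 9 tested replication partners and nucleases, 6 were positive and 3 negative (median log2 fold change 0.17). Poldip2, a protein that binds DNA polymerases, averaged 3304 ± 144.4 in D257A and 4161 ± 288.5 in wild type (SD, n = 5 each; log2 fold change -0.33, limma adjusted p = 0.218), with groups that did not overlap, as for 5.29% of all genes tested. Atad3a, an inner membrane protein of the nucleoid, averaged 4900 ± 1793 in D257A and 3235 ± 609 in wild type (SD, n = 5 each; log2 fold change 0.55, limma adjusted p = 0.255). In the repair list 4 of 6 were positive (median 0.095), with Apex1, the abasic site endonuclease, at 0.47 (limma adjusted p = 0.291) and Tdp1, which removes protein stuck to DNA ends, at 0.14 (0.76).

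Transcription partners, RNA processing and nucleoid turnover split into 9 positive and 14 negative of 23 tested (median log2 fold change -0.015). Lrpprc, which stabilises mitochondrial messenger RNA, averaged 2663 ± 655.5 in D257A and 3672 ± 442.6 in wild type (SD, n = 5 each; log2 fold change -0.49, limma adjusted p = 0.197). Hsd17b10, a subunit of mitochondrial RNase P, had a log2 fold change of -0.84 (SE 0.39, limma adjusted p = 0.296). Of the regulators, 6 were positive and 6 negative of 12 tested (median 0.000): Myc, a growth-linked transcription factor, had 0.52 and Gabpb1, the partner subunit of GABP, -0.32 (limma adjusted p = 0.267 and 0.328). Gabpb1 was at most 961.6 in D257A and at least 966.3 in wild type, so its groups did not overlap, as for 5.29% of all genes tested. Myc passed the filter on signal only through its D257A arrays, with a mean of 727.6 in D257A and 487.4 in wild type, so it could have only a positive sign. The coactivator Ppargc1a measured 2761 ± 868.3 in D257A and 2708 ± 471.9 in wild type (SD, n = 5 each), with a fold change near 0 (limma adjusted p = 0.998).

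Targets of p53, the pathway that induces Rrm2b, split into 7 positive and 6 negative of 13 tested (median log2 fold change 0.003). Sesn2, a stress-induced inhibitor of growth signalling, had 0.63 (SE 0.28, limma adjusted p = 0.263) and Gadd45a, a DNA damage response gene, 0.41 (limma adjusted p = 0.351). The wild-type median of Sesn2 was 542.3. On the log2 scale of the filter its wild-type mean lay just below 577.4, the lowest mean signal of any tested probe set. Sesn2 thus passed the filter only through its D257A arrays and could have only a positive sign. The transcripts that the machinery makes were read by 1 named probe set, that of ND5, a complex I subunit encoded in mitochondrial DNA. It averaged 67980 ± 16480 in D257A and 66020 ± 10670 in wild type (SD, n = 5 each), a log2 fold change of 0.024 with a limma adjusted p of 0.965.

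**Figure D4:**
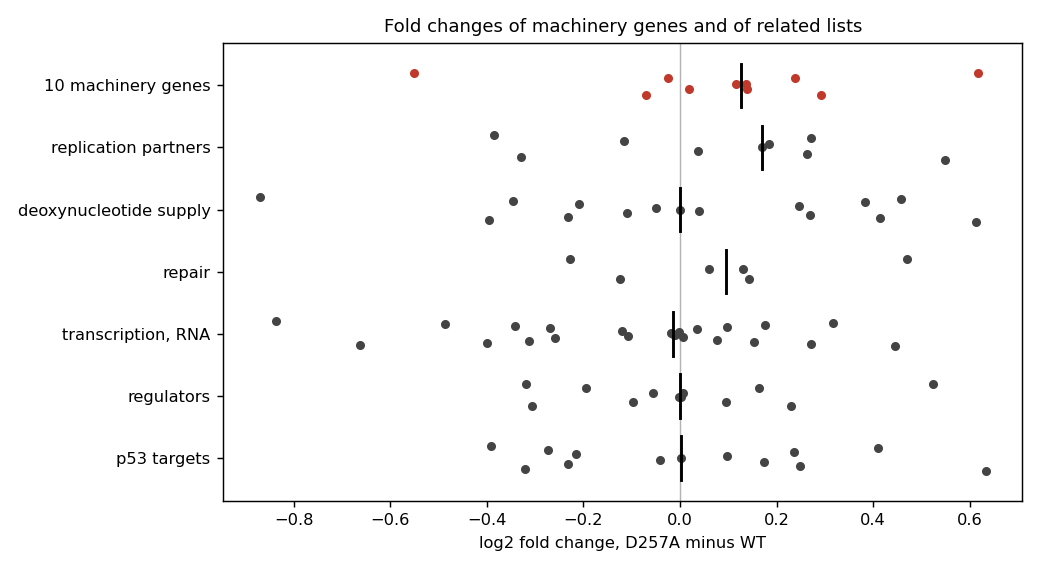
Fitted log2 fold change of D257A minus wild type for the 10 machinery genes (red) and for the tested genes of 6 related lists (grey), with 1 point per gene and a bar at each list's median. Twnk is the leftmost and Ssbp1 the rightmost red point, no gene in the plot passed the adjusted test, and the median of the machinery genes is 0.13.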

How the data were processed

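The authors deposited 1 linear signal intensity for each of 45101 probe sets on every array. GCOS 1.3 is the tool named per the submitters' processing notes; how background was corrected, probes were summarised and arrays were scaled is not given in the sources used here. Control probe sets (64, filled on 1 array only) were dropped, and no batch is named in the labels. The platform annotation gave 34945 of the remaining 45037 probe sets 1 gene, 932 several and 9160 none, and RefSeq was used to update symbols. For each gene the probe set with the highest mean log2 signal stood for it. After log2(signal + 16), the brighter fraction of 0.5 entered limma 3.58.1 (R 4.3.3; group as the only term, eBayes with an intensity trend, two-sided, 8 residual degrees of freedom). Dimmer probe sets come from a fit with no filter. The number of arrays limits the precision.

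The text names all members, from each of the 7 related lists the called genes or otherwise the 2 tested genes with the smallest p, and the 5 genes closest in pattern to Polg and to the member whose brightest probe set had the smallest p. Marker lists are given by counts and summed signal. Ppargc1a was added after its values were seen. Members and lists were chosen with earlier results of these data known. On simulated arrays with 22518 probe sets, limma found 47% of log2 changes of size 1 and 88% of size 2, and 4.26% of its calls were false. The simulation changed 200 probe sets and drew independent noise with the same SD in both groups. Real arrays differ in this, so these rates need not hold for them. Alternatives changed the pseudocount, scaling, filter, trend, weights, block, threshold, probe set rule and arrays.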

Additional observations from a re-analysis of the deposited data

Results flagged for a closer look

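Signals of 22 probe sets in 2 groups of 5 arrays, 44 sets of values in all, were searched for an array far from its group by Dixon's test at its 95% critical value of 0.71 on the log2 scale, and 2 were found; chance gives about 1 in 20. Wild-type replicate 3 was lowest for Polg 1423272_at at 1972.8, with a gap of 0.775 of the group's range. Wild-type replicate 5 was lowest for Ssbp1 1452617_at at 196.9, with a gap of 0.798, on a probe set below the filter on signal.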

How the results depend on the processing

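Of 10 machinery genes, 0 were called in each of 21 alternative fits (0 to 0 when 1 array was left out; 8 of the 10 were tested among the brightest 30% and 7 when each gene's probe sets were averaged), and 1, Twnk, passed an adjusted p of 0.3 or the study's rule of an unadjusted p under 0.05 with a fold above 1.1, against 17.1% and 16.7% of all genes tested. Both thresholds were applied to limma p-values from the main fit. The fold limit removed no gene, since 1977 of 11871 genes passed the unadjusted p with or without it. The median log2 fold change of the 10 genes was 0.025 to 0.165, and 0.039 to 0.165 when 1 array was left out; it was 0.025 when centring arrays on their medians, which moved the median of all tested probe sets to -0.101. Among 340 values of single probe sets, 318 kept their sign and none gained a call. The sign turned for 5 probe sets near 0: Polg 1423272_at with quantile normalization (0.022) and the mean over its probe sets (0.10); Tfam 1456215_at (-0.054), Ssbp1 1452616_s_at (-0.041) and Tfb1m 1449749_s_at (-0.082) with centring; Tfb1m also without the arrays that stood apart (-0.084); and Polrmt 1437377_a_at with the mean over its probe sets (-0.13). Leaving out 1 array at a time gave -0.144 to 0.069 for Polg, -0.11 to 0.14 for Tfam 1456215_at, -0.046 to 0.14 for Ssbp1 1452616_s_at, -0.003 to 0.22 for Polrmt and -0.11 to 0.19 for Tfb1m. The cause was not tested. The labels' replicate numbers were not taken to pair the samples: deviations of same-numbered samples correlated between -0.337 and 0.183, and 2 of 5 D257A samples correlated best with their own number. With the replicate number as a block, 0 of the 10 genes were called, the adjusted p of Twnk was 0.234, and calls over all probe sets numbered 188, against 513 without it. The list of deoxynucleotide supply held 1 or 2 calls in 4 alternatives and 0 in the others; the other lists held 0 in all. The 5 probe sets below the filter have intervals wider than those of all tested members except Rrm2b 1437476_at.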
